A study of Homo sapiens with 18 samples.

Results

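Described here are 10 genes that signalling through the kinase ERK (extracellular signal-regulated kinase) is known to induce. They comprise 8 inhibitors that feed back on the pathway, DUSP4, DUSP5, DUSP6, SPRY1, SPRY2, SPRY4, SPRED1 and SPRED2, and the transcription factor genes ETV4 and ETV5. They were taken by symbol from the deposited read count tables, and all 10 were found among the 27130 gene symbols. The tables come from polyadenylated RNA of the established human embryonic stem cell lines H1 (WA01) and H9 (WA09) and of derivatives in which Cas9 was used to knock out ZNF263, a zinc finger transcription factor. The series set out to learn how this factor bears on pluripotency. The replicated groups held 3 libraries each of unedited H1, the homozygous H1 knockout 1-10, unedited H9 and the homozygous H9 knockouts 9-1 and 9-D. A further set of 3 H1 libraries, without replicates, came from unedited cells, from the heterozygous knockout 1-5 and from 1-10. Each knockout name is taken here as 1 clone, and neither the edited part of ZNF263 nor the origin of the replicates (separate cultures or not) is stated. The p-values therefore measure the spread between these libraries, which may be technical, and an effect of the edit cannot be told apart from other differences between a clone and its parent line.

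Fibroblast growth factors bind receptor tyrosine kinases, which activate RAS and then the kinases RAF, MEK and ERK, and human embryonic stem cells are cultured with FGF2 to hold them in the pluripotent state. Active ERK induces its own inhibitors. Dual-specificity phosphatases (DUSP) remove phosphate from ERK, Sprouty (SPRY) and SPRED proteins act upstream on receptor signals, RAS and RAF, and the ETS factors ETV4 and ETV5 carry the signal to target genes. The repressor Capicua (CIC) holds ETV4, ETV5 and several of these inhibitors down until ERK releases it. Levels of these transcripts are therefore in common use as a readout of ERK output, although RNA does not measure ERK activity itself.

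Library totals ranged from 9.66 to 21.0 M counts, and each of the 10 genes passed the filter on low counts in every comparison. Levels are CPM (read counts relative to the library total), scaled by the trimmed mean of M values (TMM) over the 15 replicated libraries, and they are compared between groups within a gene, not between genes, because transcript lengths were not used. The targeted gene was checked first. ZNF263 stood at 40.6, 42.3 and 39.8 CPM in H1 wild type and at 32.7, 33.6 and 36.3 CPM in clone 1-10. In H9 it stood at 39.6, 44.1 and 42.4 CPM in wild type, 37.1, 36.1 and 34.3 CPM in 9-1, and 35.3, 35.2 and 37.5 CPM in 9-D. The knockout libraries were lower in each line without overlap, but most of the ZNF263 RNA was still counted. Its log2 fold change was -0.27 (SE 0.0756, adjusted p = 0.0156) in H1, where leaving out H1 wild type replicate 2 (adjusted p = 0.0545) or clone 1-10 replicate 1 (0.0971) ended the call, and -0.23 (SE 0.0615, adjusted p = 0.0046) over both H9 clones. With the edited part unknown, the RNA level does not check whether protein was lost. The tissue label was checked on 10 pluripotent cell markers, among them POU5F1, NANOG and SOX2. Their summed level was 8335 to 8743 CPM in H1 wild type, 9286 to 9606 in 1-10, 6997 to 7191 in H9 wild type, 8242 to 8497 in 9-1 and 8388 to 8553 in 9-D, with none at 0.

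Promoter sequence is shown for 3 of the genes that fell together in H1. RefSeq's promoter table (GRCh38.p14) matched 6 of the 10 genes: DUSP6, SPRY1, SPRY2, SPRY4, SPRED1 and SPRED2. DUSP5, ETV4 and ETV5 were not matched. Windows on the chromosome that carries DUSP4 were left out of this lookup, so its absence from the table is not shown. The 250 bases before the annotated start were searched on both strands for the Capicua octamers TCAATGAA, TCAATGGA, TGAATGAA and TGAATGGA, for the ETS core CCGGAA and for GGGAGGA, a core of the ZNF263 motif. Matches are in capitals, and no 2 of them overlap.
DUSP6, chr12:89352502-89352751, minus strand: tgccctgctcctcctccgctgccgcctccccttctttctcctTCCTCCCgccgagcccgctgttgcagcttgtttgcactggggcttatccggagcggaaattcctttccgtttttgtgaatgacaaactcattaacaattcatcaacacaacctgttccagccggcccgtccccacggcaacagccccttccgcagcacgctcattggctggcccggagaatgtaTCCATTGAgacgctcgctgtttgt
SPRED2, first listed start, chr2:65432600-65432849, minus strand: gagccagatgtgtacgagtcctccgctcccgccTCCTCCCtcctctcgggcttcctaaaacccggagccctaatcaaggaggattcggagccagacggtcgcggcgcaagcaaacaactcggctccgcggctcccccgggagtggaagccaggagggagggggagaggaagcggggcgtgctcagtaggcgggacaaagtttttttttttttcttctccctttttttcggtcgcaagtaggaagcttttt
SPRY1, second listed start, chr4:123398136-123398385, plus strand: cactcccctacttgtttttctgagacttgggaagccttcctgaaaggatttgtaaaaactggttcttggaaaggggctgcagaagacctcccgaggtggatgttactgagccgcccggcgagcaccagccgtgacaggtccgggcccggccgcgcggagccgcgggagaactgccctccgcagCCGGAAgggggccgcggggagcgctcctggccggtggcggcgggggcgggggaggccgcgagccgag
The DUSP6 window held 1 Capicua octamer, TCAATGGA read on the strand opposite to the gene, 24 to 17 bases before the start. It also held GGGAGGA on that opposite strand, 208 to 202 bases before the start. SPRED2 held GGGAGGA on the opposite strand 217 to 211 bases before its first listed start, and SPRY1 held CCGGAA on the gene's own strand 67 to 62 bases before its second. Not shown, SPRY2 held CCGGAA 142 to 137 bases before its first listed start, and the windows of SPRY4 and SPRED1 held none of the words searched. The windows of the other listed starts of SPRED2, SPRY1 and SPRY2 also held none. For SPRED2 and SPRY1 the window shown is thus the one with a match. Of 35116 windows of the same length in the table, 3.18% held a Capicua octamer, 14.5% held CCGGAA and 16% held GGGAGGA. Such matches describe letters and do not show that a factor binds.

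In H1 clone 1-10, DUSP5, DUSP6, SPRY1, SPRED2 and ETV5 were lower than in wild type and none of the 10 genes was called higher. In H9 the pattern was narrower and mixed: DUSP6 and ETV5 fell, ETV4 rose, and the 7 other genes did not pass the test over both clones. Thus 5 of 10 genes were called lower in H1, where 7.25% of 14897 genes tested were lower and 5.01% higher. With edgeR's quasi-likelihood test no feedback gene was higher in H1, 0 rose and 7 fell at an unadjusted p under 0.05, and DESeq2 called 0 higher and 5 lower. The H1 background was itself unsteady: from 747 genes higher and 1080 lower it went to 284 and 665 without wild type replicate 3, to 421 and 681 without clone 1-10 replicate 1, and to 493 higher without clone 1-10 replicate 3. Over both H9 clones 2 of 10 were lower, against a background of 15.3% of 15411 genes, and 1 was higher, against 14.4%. The H9 counts of feedback genes were thus close to the background share, and the H1 count was above it. The median log2 fold change over the 10 genes was -0.23 in H1 and 0.053 in H9, beside 0.0026 and -0.0039 over all genes tested. These are bulk libraries, in which fewer cells expressing a gene and less RNA per cell cannot be told apart.

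**Figure D1:**
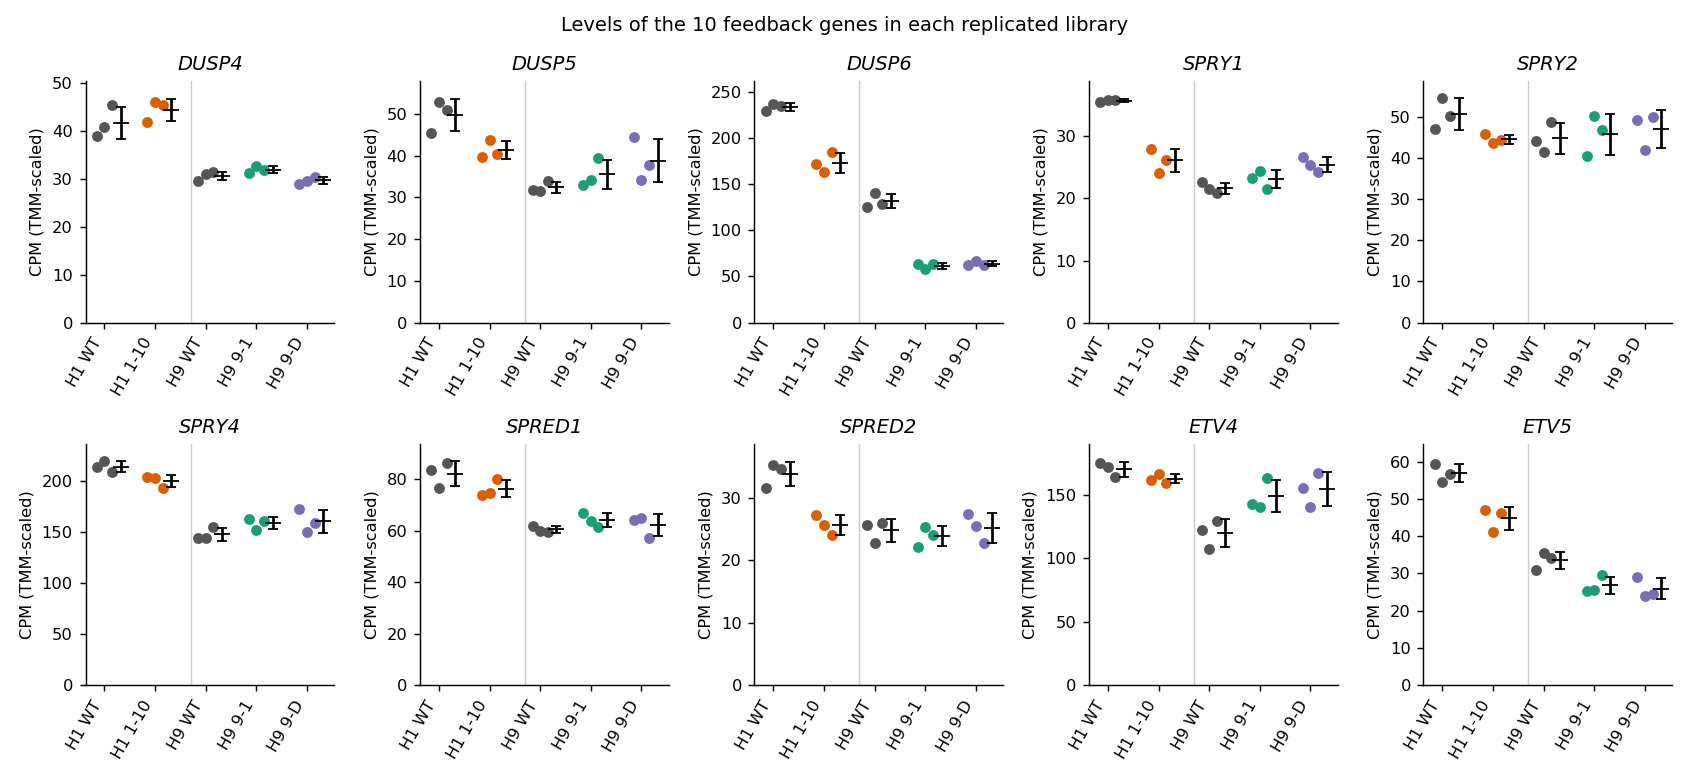
TMM-scaled CPM of each of the 10 genes (1 panel each, axis from 0) in the 15 replicated libraries, 1 point per library, with the mean and SD of each group beside the points. DUSP6 and ETV5 step down from H1 wild type to 1-10 to H9 wild type to the H9 clones, whereas ETV4 is lowest in H9 wild type (107 to 129 CPM).

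DUSP6, the cytoplasmic phosphatase most specific for ERK, showed the largest difference of the 10 genes in H9. It stood at 229.6, 238 and 235 CPM in H1 wild type and at 172, 163 and 185 CPM in clone 1-10. In H9 it stood at 126, 141 and 129 CPM in wild type, at 63.4, 57.6 and 63.8 CPM in 9-1, and at 62.4, 66.8 and 62.7 CPM in 9-D. The H1 groups were apart, all H9 knockout libraries lay under every H9 wild type library, and the 2 H9 clones overlapped. DUSP6 fell by 26.5% in 1-10 (log2 fold change -0.44, SE 0.0538, edgeR adjusted p = 3.97e-07) and by 52.6% over both H9 clones (-1.08, SE 0.0532, adjusted p = 2.8e-16). Taken singly, the H9 clones gave -1.11 (SE 0.0641, adjusted p = 3.76e-16) for 9-1 and -1.05 (SE 0.0638, adjusted p = 1.45e-15) for 9-D. No alternative ended these calls. In GENCODE 29 an antisense gene that is not in the count tables, AC024909.2, overlaps DUSP6 on the opposite strand. Whether counting used strand is not given in the sources used here, so its reads, if any, cannot be told apart from those of DUSP6.

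DUSP5, a nuclear phosphatase that acts on ERK, was lower in H1 clone 1-10 and higher in H9 clone 9-D. Its level was 45.4, 52.7 and 50.9 CPM in H1 wild type against 39.8, 43.8 and 40.3 CPM in 1-10. In H9 wild type it was 31.8, 31.6 and 33.9 CPM, in 9-1 33.1, 34.0 and 39.4 CPM, and in 9-D 44.4, 34.2 and 37.9 CPM. The H1 groups did not overlap, while in H9 the highest wild type library lay above the lowest 9-1 library and under every 9-D library. In H1 the log2 fold change was -0.27 (SE 0.0741, edgeR adjusted p = 0.0131). Leaving out wild type replicate 2 (adjusted p = 0.0643), wild type replicate 3 (0.0654) or 1-10 replicate 1 (0.0841) ended this call. Clone 9-D was higher by 0.26 (SE 0.0854, adjusted p = 0.0238), a call that ended without 9-D replicate 1 (0.226), wild type replicate 1 (0.0814) or wild type replicate 2 (0.0735). For 9-1 the value was 0.12 (adjusted p = 0.317) and for both H9 clones 0.19 (adjusted p = 0.0621), and the latter passed with no filter on low counts (0.0246), in the 15-library fit (0.0398) and without 9-1 replicate 1 (0.0309), 9-1 replicate 2 (0.0416) or 9-D replicate 2 (0.0412). DUSP4, the third phosphatase, is nuclear and acts on several mitogen-activated kinases. It stood at 38.9, 40.7 and 45.2 CPM in H1 wild type, 41.8, 46.0 and 45.2 CPM in 1-10, 29.5, 30.9 and 31.3 CPM in H9 wild type, 31.2, 32.7 and 31.8 CPM in 9-1, and 28.9, 29.6 and 30.4 CPM in 9-D. Knockout and wild type overlapped in each line, with log2 fold changes of 0.083 (adjusted p = 0.525) in H1 and 0.0057 (adjusted p = 0.961) in H9.

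Of the Sprouty genes, SPRY1 fell in H1, and in H9 its mean in each clone lay above that of wild type. SPRY1 stood at 35.6, 36.0 and 35.8 CPM in H1 wild type and at 28.0, 24.2 and 26.2 CPM in 1-10, with no overlap. Its H1 log2 fold change was -0.46 (SE 0.0813, edgeR adjusted p = 0.000159), a fall of 27.4%. H9 wild type held 22.6, 21.5 and 20.8 CPM, 9-1 held 23.4, 24.4 and 21.5 CPM, and 9-D held 26.6, 25.5 and 24.4 CPM. Here every 9-D library lay above wild type while 9-1 overlapped it. The values were 0.23 (SE 0.0855, adjusted p = 0.0459) for 9-D, 0.091 (adjusted p = 0.476) for 9-1 and 0.16 (adjusted p = 0.111) for both. The 9-D call was marginal: it was lost with DESeq2 (adjusted p = 0.0835), with no filter on low counts (0.0568), and without any 1 of the 3 wild type libraries (0.0572 to 0.158), 9-1 replicate 2 (0.0516), 9-D replicate 1 (0.133) or 9-D replicate 2 (0.075).

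SPRY2 and SPRY4, 2 other Sprouty inhibitors of receptor signalling, did not pass the test in either line. SPRY2 stood at 47.0, 54.7 and 50.2 CPM in H1 wild type, 45.8, 43.6 and 44.4 CPM in 1-10, 44.2, 41.4 and 48.9 CPM in H9 wild type, 40.4, 50.2 and 46.9 CPM in 9-1, and 49.4, 41.9 and 50.2 CPM in 9-D. The 1-10 libraries lay under all H1 wild type libraries, but the log2 fold change of -0.19 (SE 0.0717) had an edgeR adjusted p of 0.0735. Its H9 groups overlapped (0.052, adjusted p = 0.631). SPRY4 stood at 214, 219 and 209 CPM in H1 wild type, 204, 203 and 194 CPM in 1-10, 144, 144 and 155 CPM in H9 wild type, 163, 152 and 161 CPM in 9-1, and 172, 150.2 and 159 CPM in 9-D. Again the H1 groups were apart by a small step (-0.10, SE 0.0507, adjusted p = 0.189) and the H9 groups overlapped (0.11, SE 0.0518, adjusted p = 0.126). The antisense gene SPRY4-AS1, which is not in the count tables, overlaps SPRY4 in GENCODE 29.

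The SPRED genes encode membrane proteins that restrain RAS and RAF. SPRED2 stood at 31.7, 35.4 and 34.6 CPM in H1 wild type and at 27.3, 25.6 and 24.0 CPM in 1-10, with no overlap. It fell by 24.3% there (log2 fold change -0.40, SE 0.0827, edgeR adjusted p = 0.00107). In H9 it stood at 25.7, 22.8 and 26.0 CPM in wild type, 22.2, 25.3 and 24.1 CPM in 9-1, and 27.5, 25.5 and 22.7 CPM in 9-D. All 3 H9 groups overlapped, and the value over both clones was -0.018 (SE 0.0774, 95% interval -0.17 to 0.13, adjusted p = 0.891). SPRED1 stood at 83.4, 76.6 and 86.1 CPM in H1 wild type, 74.0, 74.8 and 80.1 CPM in 1-10, 61.9, 59.8 and 59.7 CPM in H9 wild type, 66.9, 63.6 and 61.5 CPM in 9-1, and 64.0, 65.03 and 57.2 CPM in 9-D. Knockout overlapped wild type in both lines, at -0.11 (adjusted p = 0.252) in H1 and 0.055 (adjusted p = 0.507) in H9.

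ETV4 and ETV5, closely related ETS activators of the PEA3 group, parted from each other in H9. ETV5 stood at 59.3, 54.6 and 56.7 CPM in H1 wild type and at 47.1, 41.2 and 46.1 CPM in 1-10. In H9 it stood at 30.9, 35.4 and 34.1 CPM in wild type, 25.2, 25.5 and 29.5 CPM in 9-1, and 29.2, 24.0 and 24.5 CPM in 9-D. No knockout library of either line reached the lowest of its wild type libraries. ETV5 fell by 21.8% in H1 (log2 fold change -0.35, SE 0.0711, edgeR adjusted p = 0.00082) and by 21.6% over both H9 clones (-0.35, SE 0.0749, adjusted p = 0.000526), with -0.33 (adjusted p = 0.00403) for 9-1 and -0.37 (adjusted p = 0.00147) for 9-D. ETV4 stood at 175, 172 and 163 CPM in H1 wild type and 162, 167 and 159 CPM in 1-10, which overlapped (-0.070, SE 0.0531, adjusted p = 0.428). In H9 wild type it stood at 122, 107 and 129 CPM, in 9-1 at 142, 140.3 and 163 CPM and in 9-D at 155, 140.5 and 167 CPM. All 6 H9 knockout libraries lay above all 3 wild type libraries, and ETV4 rose by 26.0% (0.33, SE 0.0628, adjusted p = 0.000121), with 0.31 (adjusted p = 0.00108) for 9-1 and 0.36 (adjusted p = 0.000154) for 9-D. The calls of ETV5 in both lines and of ETV4 in H9 held in every alternative run. In GENCODE 29, ETV4 is overlapped on the opposite strand by DHX8, with 825 to 1505 reads per library, and DHX8 itself was not called in H1 (0.16, adjusted p = 0.0819) or H9 (0.089, adjusted p = 0.226). ETV5 is overlapped on the opposite strand by ETV5-AS1, which is not in the count tables, and on its own strand by DGKG, with 2 to 21 reads.

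**Figure D2:**
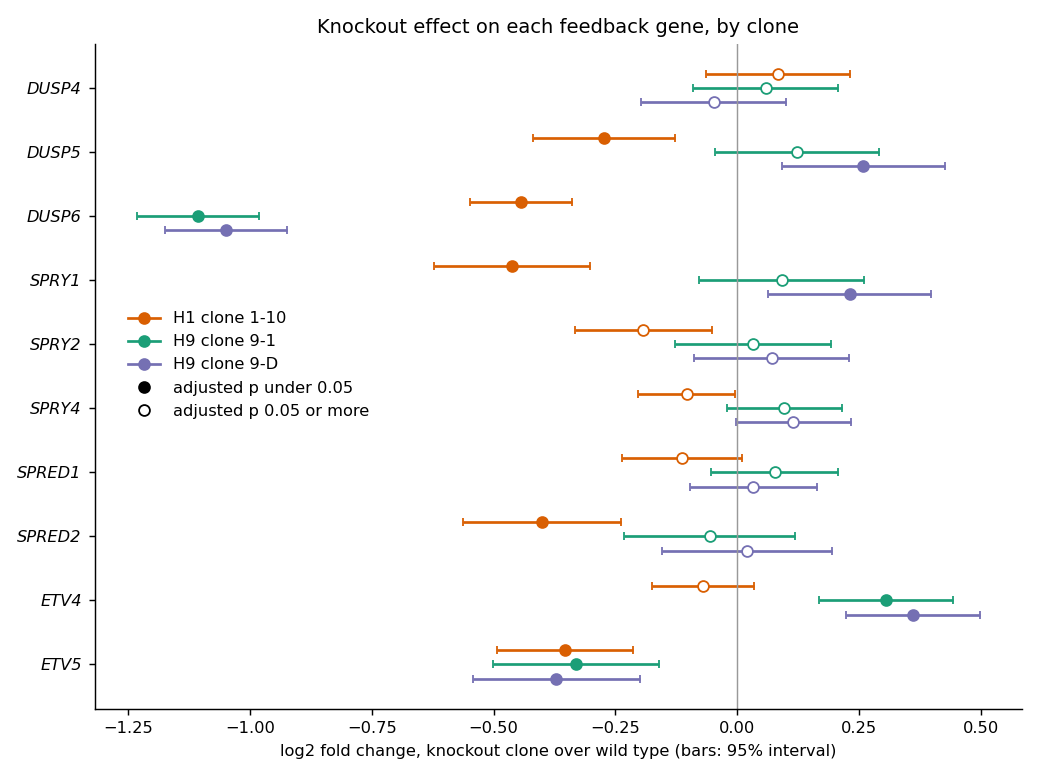
Log2 fold change of each gene in each homozygous clone over its own wild type, with bars of the 95% interval; filled points have an edgeR adjusted p under 0.05. Both H9 clones lie near -1.1 for DUSP6 where H1 clone 1-10 lies at -0.44, all 3 clones lie between -0.33 and -0.37 for ETV5, and SPRY1 and SPRED2 lie at -0.46 and -0.40 in 1-10 and near or above 0 in the H9 clones.

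The 2 H9 clones have separate names and share their wild type libraries as control. The sample titles do not say whether the clones came from separate edits. Clone 9-1 had 1 gene higher (background 12.8%) and 2 lower (13.5%), and 9-D had 3 higher (11.5%) and 2 lower (12%), of the 10. The count of 3 was 1 without H9 wild type replicate 1, wild type replicate 2 or 9-D replicate 1. Tested directly against each other, 9-D and 9-1 differed in none of them by edgeR, where 0.162% of 15411 genes were higher in 9-D and 0.143% lower. At an unadjusted p under 0.05 the count was also 0 in each direction, and DESeq2 called 0. Those backgrounds are 25 and 22 genes. The first was 12 to 15 genes without 9-1 replicate 1, 2 or 3 or 9-D replicate 2 or 3, and the second was 11 to 14 without 9-1 replicate 2 or 9-D replicate 2 or 3. The differences ran from -0.11 for DUSP4 to 0.14 for SPRY1, with adjusted p from 0.809 to 0.971. For DUSP6 the 95% interval of the difference was -0.073 to 0.19, for ETV5 -0.21 to 0.13 and for ETV4 -0.079 to 0.19. Although DUSP5 and SPRY1 were called in 9-D alone, their clone differences of 0.14 each did not pass the test (adjusted p = 0.811 and 0.809).

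The size of the knockout effect differed between H9 and H1 for 5 of the 10 genes, by a contrast of the effects over all 15 libraries. For 4 of them the H9 effect was higher than the H1 effect, against 5.21% of 15802 genes, and for DUSP6 it was lower, against 4%. DUSP6 fell more in H9 (difference of log2 fold changes -0.64, SE 0.0778, edgeR adjusted p = 6.75e-08). SPRY1 (0.62, SE 0.108, adjusted p = 6.16e-05), DUSP5 (0.46, SE 0.111, adjusted p = 0.00395), ETV4 (0.40, SE 0.0871, adjusted p = 0.00134) and SPRED2 (0.38, SE 0.114, adjusted p = 0.0261) had higher log2 fold changes in H9 than in H1. The SPRED2 call was lost without H1 wild type replicate 2 (adjusted p = 0.0748), H1 wild type replicate 3 (0.0652), 1-10 replicate 3 (0.0784) or H9 wild type replicate 2 (0.0954). SPRY4 did not pass (0.21, adjusted p = 0.0713), and passed without 9-D replicate 2 (0.045). ETV5 gave a difference of 0.0011 with a 95% interval of -0.21 to 0.22 (adjusted p = 1). DUSP4, SPRY2 and SPRED1 had values from -0.080 to 0.24 and adjusted p from 0.164 to 0.705. The median over the 10 genes was 0.23, beside -0.0042 over all genes tested. Each line also has its own clones, so line and clone cannot be told apart here.

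Before any edit, H9 held less of these transcripts than H1. In H9 wild type 9 of the 10 genes were lower than in H1 wild type and none higher, where 25.6% of 15802 genes were lower and 27.1% higher. Both edgeR and DESeq2 gave 0 higher and 9 lower, and at an unadjusted p under 0.05 the counts were 0 and 10. The median log2 difference over the 10 was -0.52, beside 0.0070 over all genes tested. Of the pathway lists described below, the cascade had 15 of 25 lower and 1 higher in this comparison. Nuclear regulators had 9 of 15 lower and 0 higher, and other brakes 11 of 19 lower and 3 higher. FGF genes had 5 of 17 lower and 7 higher, and other ERK-induced transcripts 9 of 21 lower and 8 higher. The largest differences were those of DUSP6 (-0.83, SE 0.0582, adjusted p = 1.77e-15), ETV5 (-0.76, SE 0.0794, adjusted p = 1.04e-10) and SPRY1 (-0.72, SE 0.081, adjusted p = 6.41e-10). DUSP5 (-0.62), SPRY4 (-0.54), ETV4 (-0.50), SPRED2 (-0.45), DUSP4 (-0.45) and SPRED1 (-0.44) followed, with adjusted p of 2.53e-05 or less. SPRY2 did not pass (-0.18, SE 0.0799, adjusted p = 0.0583), but did without H1 wild type replicate 1 (0.0312), without H9 wild type replicate 3 (0.0225) and with DESeq2 size factors (0.0386). The labels give no batch, so line and any batch of culture or sequencing cannot be told apart in this comparison.

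Set in order of their means over the 5 groups, DUSP6 and ETV5 followed the same sequence. It ran from H1 wild type (234 ± 4.12 and 56.9 ± 2.35 CPM, mean ± SD, n = 3) through 1-10 (173 ± 11.1 and 44.8 ± 3.14) and H9 wild type (132 ± 7.91 and 33.5 ± 2.33) to the H9 clones (62.8 ± 2.98 and 26.3 ± 2.41, n = 6), and of neighbouring groups only the 2 H9 clones overlapped. For SPRY1 and SPRED2, H1 wild type stood apart at the top (35.8 ± 0.189 and 33.9 ± 1.96 CPM), and the libraries of 1-10 (26.1 ± 1.93 and 25.7 ± 1.65 CPM) overlapped the H9 group next in order, 9-D. ETV4 had H9 wild type apart at the bottom (120 ± 11.3 CPM), with every other neighbouring pair overlapping. SPRY2 had no neighbouring pair that was apart.

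Within a library, the counts of related genes give shares that do not depend on the scaling between libraries. DUSP6 made up 73.1, 71.8 and 71.0% of the summed counts of DUSP4, DUSP5 and DUSP6 in H1 wild type and 67.8, 64.5 and 68.4% in 1-10. In H9 the share was 67.2, 69.3 and 66.4% in wild type, 49.7, 46.4 and 47.2% in 9-1, and 46.0, 51.2 and 47.9% in 9-D. ETV5 made up 25.1 ± 0.850% (SD, n = 3) of the ETV4 and ETV5 counts in H1 wild type and 21.6 ± 1.53% (n = 3) in 1-10, and 21.9 ± 2.50% (n = 3) in H9 wild type and 14.8 ± 1.08% (n = 6) in the H9 clones. The single 1-10 library had a DUSP6 share of 71.9%, within the range of the replicated H1 wild type libraries. Among the replicated libraries, both shares were lower in every knockout library than in any wild type library of the same line. In H9 each difference had p = 0.0119 by a two-sided exact permutation test over 84 arrangements, the smallest p this design allows, or 0.0238 after Benjamini-Hochberg adjustment over the 4 tests. In H1 each had p = 0.1 in the exact permutation test, which 3 against 3 libraries cannot go under. These shares were chosen after the values had been seen, so the p-values give no independent support. The test also treats the H9 knockout libraries as separate units, although they come from the clones 9-1 and 9-D alone.

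**Figure D3:**
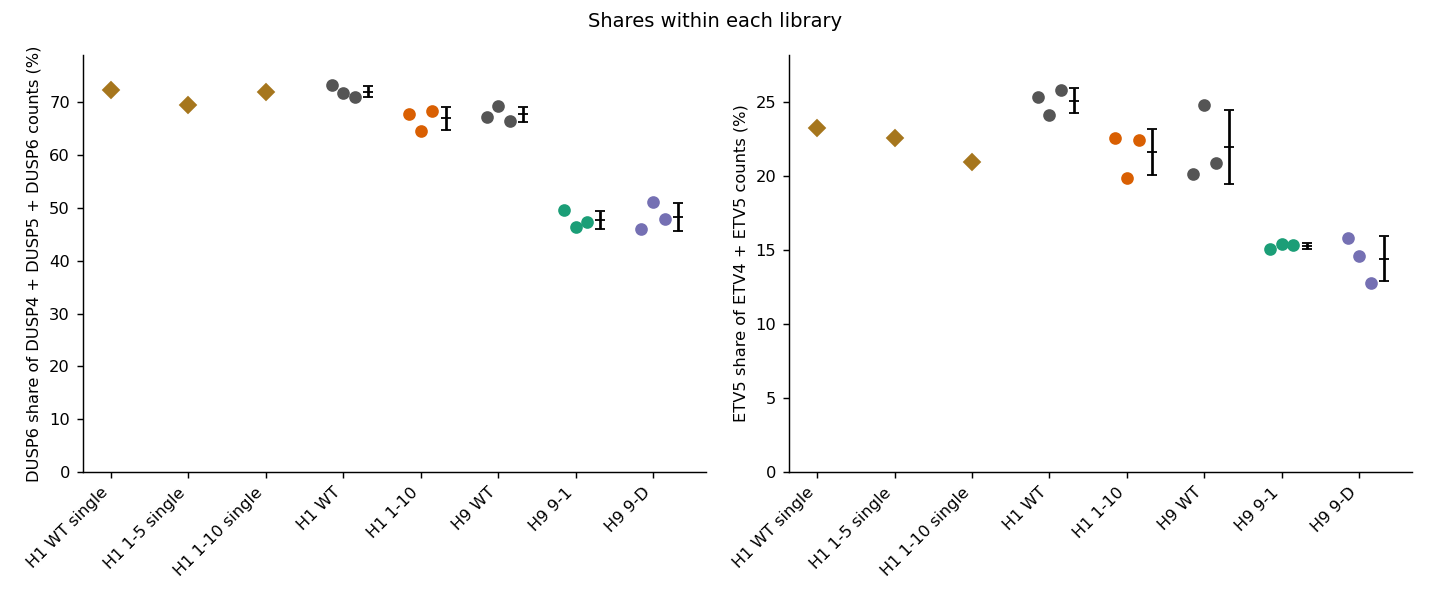
Share of DUSP6 in the counts of DUSP4, DUSP5 and DUSP6 (left) and of ETV5 in the counts of ETV4 and ETV5 (right), in percent, in all 18 libraries; circles are replicated libraries with the group mean and SD, diamonds are the single libraries. The 6 H9 knockout libraries lie at 46.0 to 51.2% and 12.8 to 15.8%, under all other libraries in both panels.

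The single H1 libraries have no replicates, so their differences have no test, and both ratios share 1 wild type library. DUSP6 stood at 181 CPM of total counts in the single wild type, 152 CPM in the heterozygous 1-5 and 175 CPM in 1-10. Its log2 ratio to wild type was -0.25 in 1-5 (exact binomial 95% interval, counting error alone, -0.34 to -0.16) and -0.049 in 1-10 (-0.14 to 0.037). The latter interval does not cover the -0.44 of the replicated 1-10 libraries. ETV5 stood at 45.4, 42.3 and 39.9 CPM, a ratio of -0.10 (-0.28 to 0.073) in 1-5 and of -0.19 (-0.37 to -0.0096) in 1-10. SPRY1 was at -0.057 (-0.29 to 0.17) and -0.055 (-0.28 to 0.17), and SPRED2 at -0.084 (-0.31 to 0.14) and -0.15 (-0.37 to 0.075). SPRY4 was at -0.16 in 1-5 (-0.25 to -0.071), and SPRED1 at -0.17 in 1-5 (-0.32 to -0.016) and -0.18 in 1-10 (-0.33 to -0.024). These ratios are scaled by total counts. Scaled by DESeq2 size factors, the intervals of SPRED1 in 1-5 (-0.29 to 0.011) and 1-10 (-0.30 to 0.0033) and of ETV5 in 1-10 (-0.34 to 0.018) included 0, while those of DUSP6 (-0.31 to -0.13) and SPRY4 (-0.22 to -0.044) in 1-5 stayed under it. Of the 10 genes, 2 were above 0 in 1-5 and 3 in 1-10, where 44.3% and 44.1% of 14393 genes were above 0. The medians over the 10 were -0.094 and -0.040, beside -0.024 in each over the 14393 genes. With size factors 8 of the 10 were under 0 in 1-5 and 6 in 1-10, and 50.5% and 51.4% of all genes were above 0. ZNF263 was at -0.33 in 1-5 and -0.27 in 1-10.

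The rest of the pathway was read from 5 lists, each set against the same share of all genes tested: 5.01% higher and 7.25% lower in H1, and 14.4% higher and 15.3% lower in H9. Of 19 genes for FGF ligands, receptors and binding proteins, 15 were tested in each line, with 1 higher and 5 lower in H1 (median log2 fold change -0.13) and 4 higher and 5 lower in H9 (-0.0055). FGF19, a secreted FGF, rose in both lines, from 21.3 ± 1.48 to 31.2 ± 1.92 CPM in H1 (0.55, SE 0.0876, adjusted p = 4.22e-05) and from 18.3 ± 0.371 to 31.3 ± 3.58 CPM in H9 (0.78, adjusted p = 2.43e-08). FGFBP3, a secreted protein that binds FGFs, fell in both, from 289 ± 12.8 to 249.9 ± 6.42 CPM in H1 (-0.22, adjusted p = 0.00371, or 0.0507 without wild type replicate 3) and from 385 ± 18.4 to 263 ± 6.98 CPM in H9 (-0.56, adjusted p = 6.3e-11). FGF2, the ligand that stem cell media supply, rose in H9 from 207 ± 2.61 to 295 ± 21.2 CPM (0.51, adjusted p = 1.39e-08), and was at 0.085 (adjusted p = 0.415) in H1. FGF8 rose in H9 from 2.47 ± 0.196 to 6.83 ± 1.26 CPM (1.45, adjusted p = 9.13e-08). In H1, FGF17 went from 2.27 ± 0.533 to 0.492 ± 0.494 CPM (-2.45, adjusted p = 0.000136) and FGF11 from 21.5 ± 3.25 to 15.1 ± 0.692 CPM (-0.51, adjusted p = 0.00155). The other called genes were FGFR3 and FGF18, lower in H1, and in H9 FGF4, higher, and the receptors FGFR1, FGFR2, FGFR3 and FGFR4, all lower.

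Of 25 genes of the cascade from receptor adaptors to ERK, none was called in H1 by edgeR (2 higher and 2 lower at an unadjusted p under 0.05, and 0 by DESeq2). In H9 5 of 25 were higher, where 14.4% of all genes were, and none lower, where 15.3% were (5 and 0 at an unadjusted p under 0.05, and 4 and 0 by DESeq2). Among them were the RAS family gene RRAS2 (0.17, adjusted p = 0.00946), the scaffold KSR1 (0.23, adjusted p = 0.00667), SHOC2 and PEBP1 (0.15, adjusted p = 0.0121), which is known as an inhibitor of the cascade. The call of PEBP1 was lost without H9 wild type replicate 1 (adjusted p = 0.0745) and that of RRAS2 without H9 wild type replicate 3 (0.0661). Taken singly, clone 9-1 had 5 of 25 higher (background 12.8%) and clone 9-D had 2, PEBP1 and KSR1 (background 11.5%). The list medians were -0.045 in H1 and 0.047 over both H9 clones.

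Other brakes on RAS and ERK had 1 gene higher and 2 lower of 18 tested in H1 (median -0.065; DESeq2 0 and 2; background 5.01% and 7.25%) and 6 higher and 4 lower of 19 in H9 (-0.030; DESeq2 6 and 2; background 14.4% and 15.3%). The 1 gene higher in H1, DUSP8, acts on the stress kinases, so not every gene of this list is a brake on ERK. SHISA2, which hinders the maturation of FGF receptors, fell in both lines, from 40.2 ± 0.567 to 30.4 ± 0.930 CPM in H1 (-0.41, adjusted p = 0.000264) and from 13.1 ± 0.821 to 9.02 ± 0.690 CPM in H9 (-0.55, adjusted p = 5.59e-05). IL17RD, an antagonist of FGF receptor signalling that is known as SEF, was at -0.17 in H1 (adjusted p = 0.0373, lost without any 1 of the 6 libraries, 0.0553 to 0.107, and in the fit over 15 libraries, 0.0811) and at -0.15 in H9 (adjusted p = 0.0375). DUSP8, a phosphatase of the stress kinases, was higher in both, at 0.74 in H1 (adjusted p = 0.0173, lost with DESeq2, 0.0718, and without wild type replicate 3, 0.0877, 1-10 replicate 1, 0.064, or 1-10 replicate 3, 0.0682) and 0.74 in H9 (adjusted p = 0.000117). The RAS GTPase-activating protein RASA3 rose in H9 from 26.8 ± 1.73 to 35.8 ± 1.72 CPM (0.41, adjusted p = 2.45e-05), as did ERRFI1, an inhibitor of the EGF receptor, by 0.29 (adjusted p = 0.000602). DUSP2, DUSP10 and RASAL2 were the other genes called higher in H9, and RASA2 and DUSP9 the others called lower. These H9 calls are over both clones. Taken singly, 9-1 had 7 higher and 3 lower of 19 (background 12.8% and 13.5%), and 9-D 4 and 2 (11.5% and 12%). DUSP10, RASAL2, IL17RD and DUSP9 were not called in 9-D, and RASA2 was not called in 9-1.

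Other transcripts that ERK induces did not move one way. In H1, 1 of 21 tested was higher and 4 were lower (median -0.073; background 5.01% and 7.25%), and in H9 6 were higher and 6 lower (0.032; background 14.4% and 15.3%). EPHA4, an ephrin receptor, fell in both lines (-0.51, adjusted p = 0.00201 in H1, and -0.89, adjusted p = 5.03e-09 in H9), and so did its relative EPHA2 (-0.26, adjusted p = 0.0168 in H1, lost without wild type replicate 2, 0.052, or 1-10 replicate 3, 0.134; and -0.24, adjusted p = 0.000835 in H9). MYC rose in both (0.23, adjusted p = 0.01 in H1, lost without wild type replicate 3, 0.106; and 0.30, adjusted p = 0.000512 in H9). The repressor gene BHLHE40 fell in H1, from 7.56 ± 1.66 to 4.14 ± 0.363 CPM (-0.88, adjusted p = 0.000735), and rose in H9, from 3.74 ± 0.571 to 8.04 ± 0.797 CPM (1.09, adjusted p = 2.63e-07). EGR1, an immediate early gene of ERK, fell in H9 from 20.6 ± 3.48 to 10.7 ± 1.22 CPM (-0.96, adjusted p = 1.03e-08), and stood at 0.18 (adjusted p = 0.431) in H1. CCND1, which encodes cyclin D1, rose in H9 by 0.26 (adjusted p = 9.81e-05). FLRT3 was the other gene called in H1, lower, and in H9 the others were FOSL1, MCL1 and PHLDA1, higher, and PLAUR, IER3 and FLRT3, lower.

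Nuclear regulators of ETV genes and of the Capicua axis had 3 of 15 higher and none lower in H1 (edgeR; 5 higher and 1 lower at an unadjusted p under 0.05; DESeq2 2 and 0), with a median of 0.050 and a background of 5.01% higher. In H9 7 were higher and none lower (7 and 1 at an unadjusted p under 0.05; DESeq2 7 and 0), with a median of 0.12 and a background of 14.4% higher. ETS1, an ETS activator that ERK phosphorylates, rose from 64.5 ± 1.25 to 88.1 ± 5.03 CPM in H1 (0.44, adjusted p = 4.79e-06) and from 58.3 ± 3.26 to 85.0 ± 6.19 CPM in H9 (0.54, adjusted p = 4.43e-08). ATXN1, whose protein binds Capicua, rose from 2.52 ± 0.636 to 6.12 ± 0.587 CPM in H1 (1.27, adjusted p = 2.97e-05) and from 3.20 ± 0.342 to 5.55 ± 0.913 CPM in H9 (0.80, adjusted p = 0.000361). FOXO3 rose by 0.23 in H1 (adjusted p = 0.0282, lost with DESeq2, 0.0558, and without wild type replicate 1, 0.105, wild type replicate 3, 0.0849, or 1-10 replicate 1, 0.132) and by 0.33 in H9 (adjusted p = 0.000471). ETS2 rose in H9 by 0.27 (adjusted p = 0.000906), and ERF, FOXO1 and SRF were the other genes called higher there. CIC itself was called in neither line.

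**Figure D4:**
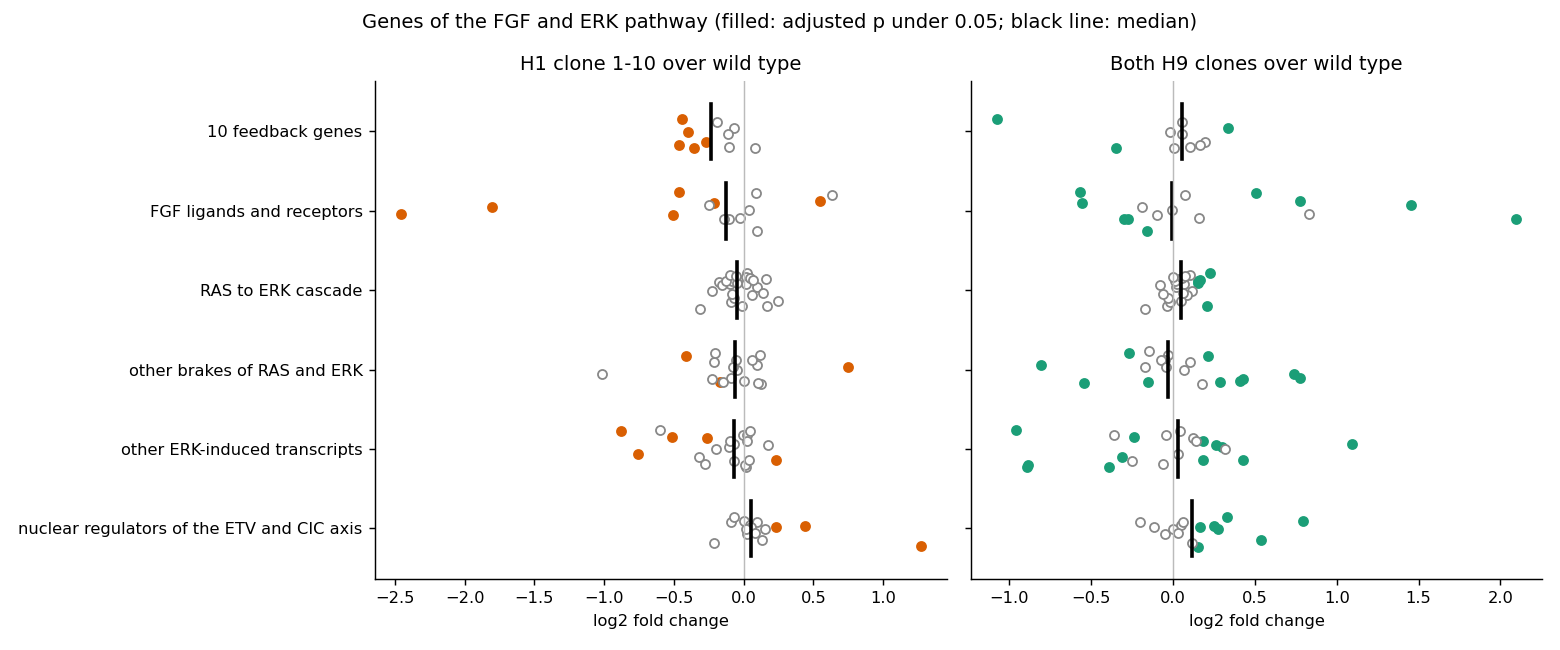
Log2 fold change over wild type of each tested gene of the feedback genes and the 5 pathway lists, in H1 clone 1-10 (left) and both H9 clones (right); filled points have an edgeR adjusted p under 0.05, and black lines mark list medians. The feedback genes have the lowest of the 6 medians in H1 (-0.23), where the nuclear regulators have the highest (0.050), and in H9 all 6 medians lie between -0.030 and 0.12.

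Genes listed as markers of other cell types were called in both lines. The summed level of 6 primitive streak markers was 29.96 to 31.4 CPM in H1 wild type and 8.57 to 18.0 in 1-10, with 4 of 5 tested genes lower (DESeq2 3), and that of 8 neuroectoderm markers was 28.2 to 39.9 and 9.28 to 15.2 CPM, with 5 of 8 lower (DESeq2 4), where 7.25% of all genes were lower. In both, none was at 0. Of 7 fibroblast and feeder markers tested in H1, 5 were lower (DESeq2 3), against the same 7.25%, with sums of 906 to 952 CPM in wild type and 816 to 970.4 in 1-10. The highest of them in H1 wild type were THY1 (means of 370 CPM in H1 and 469 CPM in H9 wild type) and VIM (262 and 212 CPM). The collagen genes COL1A2 (158 and 219 CPM) and COL1A1 (99.9 and 162 CPM) were also well above 0. In H9 wild type COL1A2 lay above VIM. DCN (0.065 and 0 CPM) and LUM (0.12 and 0.046 CPM) were near 0 in both. Of the pluripotent cell markers, 3 of 10 were higher in H1, where 5.01% of all genes were, and 9 of 10 in H9, where 14.4% were. In H9 the streak markers summed to 10.5 to 20.7 CPM in wild type, 10.1 to 43.2 in 9-1 and 10.5 to 25.8 in 9-D (0 of 5 tested called by edgeR, 0 at an unadjusted p under 0.05 and 0 by DESeq2), and the neuroectoderm markers to 4.81 to 7.11, 2.34 to 4.74 and 2.54 to 3.75 CPM (0 of 3 called by edgeR, 1 lower at an unadjusted p under 0.05 and 2 lower by DESeq2). Summed definitive endoderm markers (5 genes) were 5.57 to 9.14 CPM in H1 wild type, 3.99 to 6.33 in 1-10, 1.35 to 2.06 in H9 wild type, 2.29 to 5.95 in 9-1 and 3.01 to 5.37 in 9-D. Summed trophoblast and amnion markers (6 genes) were 9.54 to 10.6, 5.19 to 5.79, 8.32 to 8.87, 5.66 to 6.86 and 5.48 to 8.32 CPM in the same order, with CGA and HAND1 at 0 in H1 wild type, CGA in H9 wild type and 9-1, and CDX2 in 9-D. H9 fibroblast and feeder sums were 1091 to 1150.5 CPM in wild type, 1038 to 1108 in 9-1 and 1146 to 1231 in 9-D, with DCN (wild type and 9-D) or LUM (9-1) at 0. Both tested endoderm markers were higher in H9, FOXA2 (1.85, adjusted p = 7.62e-05) and GATA6 (1.43, adjusted p = 0.00518), and SOX17 was lower in H1 (-1.59, adjusted p = 0.0259, not called by DESeq2). All 3 were at low levels. FOXA2 went from 0.45 to 1.66 CPM and GATA6 from 0.50 to 1.34 CPM in H9, and SOX17 from 1.09 to 0.42 CPM in H1. FOXA2 stood at 3.98 CPM in H1 wild type and 3.93 CPM in 1-10. KRT7, of the trophoblast list, was lower in both lines (-0.95, adjusted p = 2.94e-05 in H1, and -0.64, adjusted p = 0.000935 in H9). Of 6 fibroblast and feeder markers tested in H9, VIM and COL1A1 were higher and COL5A1, THY1 and COL1A2 lower (DESeq2 2 and 2). Whether cells of these types were present, and any part of theirs in the levels of the feedback genes, was not tested.

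Outside the 10 genes, those whose pattern over the 15 libraries was most like that of DUSP6 were FGFBP3 (Pearson r = 0.987 on log2 CPM centred within each line, among 15792 genes), CHGA (0.981), CHD7 (0.979), IL4R (0.978) and ZNF667 (0.977). These points share group structure and scaling, so r describes the pattern alone. CHGA, which encodes the secretory granule protein chromogranin A, went from 70.6 ± 6.06 to 49.6 ± 7.46 CPM in H1 and from 50.7 ± 8.05 in H9 wild type to 13.8 ± 1.22 in 9-1 and 13.8 ± 0.430 in 9-D. CHD7, a chromatin remodeller, went from 276 ± 10.7 to 217 ± 6.27 CPM in H1 and from 238 ± 11.98 to 137 ± 10.9 and 133 ± 9.35 CPM in H9. Among the feedback genes, ETV5 had r = 0.821 with DUSP6, ETV4 had -0.741, and the others lay between -0.398 and 0.275. Within H1 (6 libraries) SPRY1 (0.963), ETV5 (0.942) and SPRED2 (0.891) were highest, and within H9 (9 libraries) ETV5 (0.840) was highest and ETV4 (-0.843) lowest.

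The authors' deposited table gave H1 log2 fold changes of -0.43 for DUSP6 (adjusted p = 5.64e-15), -0.45 for SPRY1 (6.3e-05), -0.39 for SPRED2 (0.00108), -0.34 for ETV5 (0.00114) and -0.26 for DUSP5 (0.0279). For both H9 clones the authors' deposited table gave -1.07 for DUSP6 (adjusted p = 2.26e-76), 0.34 for ETV4 (1.85e-05) and -0.35 for ETV5 (0.000389). No other of the 10 genes was under 0.05 in either line in the authors' deposited table.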

How the data were processed

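Polyadenylated RNA was sequenced in 18 libraries of H1 and H9. The authors deposited whole read counts per gene symbol and tables of log2 fold changes with adjusted p-values; per the submitters' processing notes they used STAR, hg19, featureCounts and DESeq2, and options and strand are not given in the sources used here. A count column whose name gave a line and a number and no clone was read as that wild type replicate. Counts were tested with edgeR 4.0.16 (R 4.3.3): quasi-likelihood F test, TMM, filterByExpr, Benjamini-Hochberg adjustment over all genes and a threshold of 0.05. SE was computed as |log2 fold change| over √F. The 95% intervals of tested log2 fold changes used this SE with a normal quantile. They are therefore somewhat narrower than intervals that follow the F test. Replicate pairs differed by more than counting error (chi-square per gene 1.83 to 5.94 over 15 pairs). The 3 single libraries were compared by counts per total with exact binomial intervals, which cover counting error only.

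The 10 genes, the pathway and marker lists and the tests were chosen with earlier results of these data known. Named genes were the 10, ZNF263, up to 4 called genes per list and line by smallest p, and the 5 genes most correlated with DUSP6 (log2 CPM, prior count 2); other names complete a count and were chosen after their values were seen. Alternatives were DESeq2 1.42.0, its size factors in edgeR, no filter, a replicate block, a 15-library fit and leaving out each library. The fits were checked on simulated counts. Promoter windows came from RefSeq (GRCh38.p14) and overlapping genes from GENCODE 29, a newer build than that used for counting. Some values of single pathway genes are not reported here.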

Additional observations from a re-analysis of the deposited data

Results flagged for a closer look

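For 5 of the 10 feedback genes, the knockout effect in H9 differed from that in H1 by edgeR's quasi-likelihood test of the difference with Benjamini-Hochberg adjustment. The difference of log2 fold changes, H9 minus H1, was -0.64 for DUSP6, 0.62 for SPRY1, 0.46 for DUSP5, 0.40 for ETV4 and 0.38 for SPRED2. DUSP6, SPRY1, DUSP5 and ETV4 kept their calls in every alternative that was run. In the 6 H9 knockout libraries, the group large enough for that check, no library stood apart from the others for any of the 10 genes.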

How the results depend on the processing

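The calls of DUSP6, SPRY1, SPRED2 and ETV5 in H1 and of DUSP6, ETV4 and ETV5 in H9 kept their direction and passed the threshold in every alternative. Over all genes in H1, the DESeq2 test called 641 lower and the replicate block 1473 higher, and leaving out 1 library gave 284 to 903 higher and 665 to 1197 lower. In H9, DUSP5 joined ETV4 as a second feedback gene called higher with no filter, with the replicate block (adjusted p = 0.0496) and in the 15-library fit, 2 in each case, and leaving out 1 library gave 1 to 2. The count of feedback genes higher in 9-D was 1 to 3 without 1 library. Between 9-D and 9-1, 12 to 31 genes were higher and 11 to 24 lower without 1 library.

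Uncalled values near 0 changed sign when 1 library was left out. Over both H9 clones the ranges were -0.023 to 0.028 for DUSP4, -0.0033 to 0.12 for SPRY2 and -0.078 to 0.014 for SPRED2. SPRY2 in 9-1 ran from -0.046 to 0.12 and SPRED2 in 9-D from -0.041 to 0.099. For 9-D minus 9-1 the ranges were -0.037 to 0.12 for SPRY2, -0.030 to 0.071 for SPRY4, -0.069 to 0.015 for SPRED1, -0.00090 to 0.13 for ETV4, -0.13 to 0.036 for ETV5 and -0.022 to 0.034 for ZNF263. The difference between lines ran from -0.061 to 0.043 for ETV5, which was -0.00011 with no filter, and from -0.0076 to 0.075 for ZNF263. The cause was not tested.

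The replicate numbers were not treated as pairs. Deviations of same-numbered libraries correlated at 0.028 to 0.080 in H1 and -0.027 to 0.050 in H9. With the replicate block, SPRY2 was called lower in H1 (-0.19, adjusted p = 0.026) and SPRY4 differed between the lines (0.21, adjusted p = 0.0269). At 9.66 to 21.0 M counts per library, 3 libraries a group leave small differences undetected.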
